A study of Mus musculus with 4 samples.

Results

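The genotype difference in unstimulated effector CD4 T cells was read from 2 of the 4 arrays of the series, 1 of WT cells and 1 of cells labelled Bach2 KO, both taken before re-stimulation. The mice were on the C57BL/6J background, female by their labels, and either WT or Bach2 KO. The latter carried Bach2flox/flox with a CD4-Cre TG transgene. In this cross Cre is driven by the Cd4 promoter, so that Bach2 is deleted in T lineage cells. Naive CD4 T cells from the spleen, sorted by surface markers that included low CD44 and no CD25, were stimulated for 2 days through the T cell receptor (anti-TCR-β, 3 μg/ml) and CD28 (anti-CD28, 1 μg/ml). They were then kept for 3 more days with IL-2 at 2.5 ng/ml by the labels. The study's methods give another IL-2 concentration for this condition. The other 2 arrays hold cells of the same labels after a further 4 h on an immobilized anti-TCR-β mAb without added IL-2, and they are used here to see where the differences recurred. Each condition was read on 1 array, so no difference has a replicate check, and a 2-fold difference is used as a rule of size and not as a test. The number of mice behind each array is not given in the sources used here. Signals are the scanner's background-subtracted intensities, given with WT first and KO second. A log2 difference is the array labelled KO (the KO array) minus the WT array after each was scaled to its own 75th percentile. Of the 18749 genes with a named probe, 12136 were used, namely those whose probe the scanner marked as well above background on either array or both. Of these, 11287 were well above background on both arrays, 415 on the WT array only and 434 on the KO array only. Where 1 array was not well above background, its value was raised to the lowest signal that was, 15.1 for WT and 16.8 for KO, and the difference is given as "at least".

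Bach2 is a leucine zipper transcription factor of the CNC family that acts mainly as a repressor. It binds AP-1 and related motifs together with partners such as small Maf proteins and Batf, and so shares sites with activating AP-1 complexes. In T cells it is known for holding naive and memory cells in a resting state and for restraining effector programmes, and in B cells for delaying the plasma cell programme that Prdm1 (Blimp-1) drives.

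The labels were checked against their own genes. Bach2 itself read 2932 in WT and 2633 in KO cells, a log2 difference of -0.15, and 3310 and 3080 after re-stimulation. The position of its probe relative to the deleted part of the gene is not known here, so it gives no clear check of the genotype, and directions follow the labels. Of 5 sex-linked genes examined, Eif2s3y had a signal of 1185, Ddx3y of 428 and Kdm5d of 77.8 on the KO array, and none of these Y-linked genes was well above background on the WT array. Uty was well above background on neither. Xist, expressed from the inactive X chromosome, had signals of 9524 and 4623. Transcripts of both X and Y type were thus present on the KO array, which goes against a label of female cells alone. The study's methods say that its cultures used mice of both sexes, and a difference of sex cannot be told apart from genotype for any gene below. Genes of the X chromosome as a whole had a median log2 difference of -0.03 (380 genes), against 0.00 for all genes used. The 15 T cell identity genes were all under 2-fold, with a median of -0.03. Cd3d gave signals of 62077 and 62813, and Thy1 of 91550 and 94384. Cd8a was well above background on neither array.

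On the KO array 638 genes (5.26% of those used) were at least 2-fold higher and 342 (2.82%) at least 2-fold lower. These shares are the background for the counts of every list below, and a list near them does not stand out. Of the higher genes, 196 differed at least 4-fold and 67 at least 8-fold. Of the lower genes, 61 and 8 did. Bounds made up 213 of the higher and 121 of the lower genes. The share past 2-fold depended on brightness: among the dimmest of 3 equal classes of mean signal 11.1% of genes were higher and 6.13% lower, and among the brightest 1.43% and 0.643%. Where a gene had at least 2 probes in use, 129 of 131 higher genes had all of them above 0, and 84 of those 131 (64.1%) had all of them at least 2-fold. For the lower genes 64 of 75 had all probes below 0 and 41 (54.7%) had all of them at least 2-fold. The median spread between probes of 1 gene was 0.09 on the log2 scale (SD, 4090 genes), and the 90th percentile was 0.33. With a background model that adds an offset to every spot (normexp) the counts were 266 and 108. Of the genes given in the results as past 2-fold, those that were then under it, all in the same direction, were Il13, Ccr8, Batf2, Fosl1, Fosl2, Ahr, Zeb2, Foxp3, Tox, Ctla4, Cd200, Lag3, Ccl3, Ccl9, Oas3, Tnfrsf8, Tnfsf4, Itgax, Itga4, Klra10, Anxa3, Bmf, Cstdc4, Fcer1a, Prg2 and Kdm5d. The plot of WT against KO signals shows both sets of genes.

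**Figure D1:**
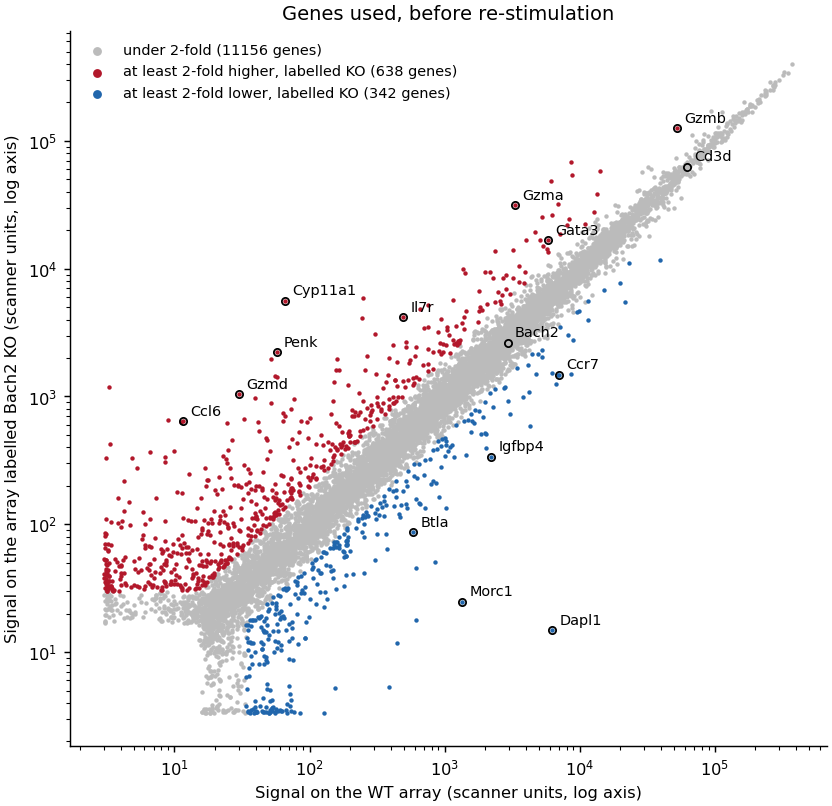
Signal of each of the 12136 genes used on the WT array (x axis, scanner units, log scale) and on the KO array (y axis, same units and scale) before re-stimulation, 1 point per gene. Red points are the 638 genes at least 2-fold higher on the KO array and blue points the 342 at least 2-fold lower, with circled genes named; Dapl1 lies farthest below the diagonal and Cd3d lies on it.

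Genes of type 2 helper T (Th2) cells were higher on the KO array well beyond the cytokine locus. Of 15 Th2 genes used, 10 were at least 2-fold higher and 0 lower, with a median log2 difference of 1.41. Il4, Il5 and Il13 themselves differed by 2.81, at least 4.45 and 2.16. Il1rl1, which encodes the IL-33 receptor ST2, had signals of 55.3 and 1438, a log2 difference of 4.71 (its other probe gave 1.71). Maf, a transcription factor that activates Il4 and Il10, had signals of 57.2 and 1432, a difference of 4.65 (1.64 by its other probe). Pparg, a nuclear receptor used by Th2 cells of tissues, had signals of 42.6 and 534, 12.6-fold higher. Gata3, the master factor of the lineage, was bright on both arrays, with signals of 5812 and 16740, and 2.89-fold higher. Nfil3 was 2.65-fold higher and Ccr8, a Th2 chemokine receptor, 2.11-fold. The IL-4 signalling genes of the list differed little: Il4ra had signals of 32515 and 39695 and Stat6 of 1997 and 1609. Il9 and Il17rb were well above background on neither array. After re-stimulation 8 of 16 Th2 genes used were at least 2-fold higher (5.17% of all genes used were), with a median of 1.21.

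Among genes measured on both arrays the largest fold was that of Cyp11a1, the mitochondrial enzyme that cleaves the side chain of cholesterol and opens steroid hormone synthesis. Its signals were 65.7 and 5621, 85.9-fold higher, and both of its probes gave differences between 6.43 and 6.52. The re-stimulated cells had 88.2 and 8478, a difference of 6.41. Other steroid genes, looked up after this value was seen, did not share it. Star, which delivers cholesterol to the enzyme, had signals of 90.3 and 65.6, Nr5a1 of 47 and 43.6, and Hsd3b1 was well above background on neither array. Among the other genes of the 20 largest differences were Calca, which encodes calcitonin and the peptide CGRP, at least 42.2-fold higher (635 on the KO array), and Sln, a small regulator of the calcium pump, at least 21.9-fold (330). Asb2, a subunit of a ubiquitin ligase, had signals of 247 and 5923, 24.1-fold higher.

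Cytokines outside the Th2 locus were higher as a group. Of 17 used, 9 were at least 2-fold higher and 0 lower, and their median log2 difference was 1.08. Penk, the precursor of enkephalin peptides, had signals of 57.1 and 2212, 38.9-fold higher. Il24, an IL-10 family cytokine, had signals of 52.1 and 1953, 37.6-fold higher by this probe and with a difference of 5.71 by its other probe. Il10 itself was not well above background on the WT array and had a signal of 378 on the KO array, at least 25.1-fold higher. Beside these regulatory and peptide genes stood growth and inflammatory factors. Csf1, which sustains macrophages, had signals of 33 and 663, 20.2-fold higher, and Spp1 (osteopontin) of 1380 and 9856, 7.18-fold. Ifng, the Th1 cytokine, had signals of 350 and 1175, 3.37-fold higher. Ebi3, a chain of IL-27 and IL-35, was 3.04-fold higher. The members that were under 2-fold included Csf2, with signals of 343 and 601, and Tgfb1, with 3166 and 4426. Il2 was at the limit of detection, with a signal of 17.5 on the WT array. After re-stimulation Ifng was bright on both arrays, 158625 and 167603, a difference of -0.09, while Il24 (5.50) and Il10 (5.85) stayed apart. Il6 was near the floor before re-stimulation, 23 on the KO array, and had signals of 85.4 and 7938 after it.

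The chemokine list showed the same lean. Of 23 chemokines and chemokine receptors used, 10 were at least 2-fold higher and 1 lower, with a median of 0.79. Ccl6 was at least 42.7-fold higher, with a signal of 642 on the KO array. Ccl4 had signals of 87 and 641, and Ccl3 of 106 on the KO array with the WT array not well above background, at least 7.04-fold higher. Ccl3 and Ccl4 are inflammatory chemokines of activated T cells and macrophages. Ccl5, Ccl9, Ccl6, Ccl3 and Ccl4 follow each other as neighbours on chromosome 11 among the genes used, and all 5 were at least 2-fold higher. Cxcl10, a chemokine induced by interferons, had signals of 22.6 and 188, 8.34-fold higher. Among receptors, Ccr2 was 3.38-fold and Cxcr6, found on tissue effector cells, 2.79-fold higher. The 1 lower member was Ccr7, the receptor that guides naive T cells into lymph nodes, with signals of 7019 and 1479, 4.72-fold lower. Re-stimulation brought Ccl3 and Ccl4 to 39967 and 136088 on the WT array and 70342 and 254794 on the KO array, differences of 0.64 and 0.73, whereas Ccl6 kept a difference of 4.96.

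Granzymes and other cytotoxic effectors, the contents of the killing granule, were higher on the KO array for 8 of 16 genes used and lower for 0, with a median of 0.98. Gzma had signals of 3301 and 31477, 9.58-fold higher. Prf1 (perforin), which forms the pore through which granzymes enter a target, had signals of 1149 and 5724, 5.01-fold higher. Gzmb was bright on both arrays, 52803 and 125468, and 2.39-fold higher. The granzymes of narrower expression differed more. Gzmd had signals of 30 and 1038, 34.8-fold higher. Gzmg (654), Gzme (370) and Gzmf (218) were well above background on the KO array only, at least 43.5, 24.6 and 14.5-fold higher. These mouse granzymes are close relatives, and since the probe sequences were not used here, cross-hybridisation between Gzmd, Gzme, Gzmf and Gzmg was not tested. Granule genes that differed by less than 2-fold included Srgn (35774 and 52200), Nkg7 (16279 and 18710) and Fasl (709 and 1146). After re-stimulation 8 of 17 used were at least 2-fold higher. Gzmg differed by at least 5.69, and Gzmd and Gzme by 5.0 and 4.77.

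Gzmb to Gzmg and Gzmn lie in a cluster on chromosome 14 together with mast cell proteases, whereas Gzma is on chromosome 13. Along it, Cma1, Mcpt8, Ctsg, Gzme, Gzmd and Gzmg were all at least 2-fold higher, as were Gzmf, Gzmc and Gzmb beyond Gzmn, whose signal of 19.6 on the KO array was near the floor. Mcpt8, a basophil protease, had a signal of 309 and Ctsg (cathepsin G, a neutrophil and mast cell protease) signals of 16.9 and 274. The mast cell proteases Mcpt1, Mcpt2, Mcpt4, Mcpt9 and Cma2 of the same cluster were well above background on neither array. At its edges Sdr39u1 differed by 0.03 and Atp12a, near the floor with signals of 15.7 and 19.1, by 0.28. Cenpj, the next gene beyond Atp12a, had signals of 1724 and 1563.

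**Figure D2:**
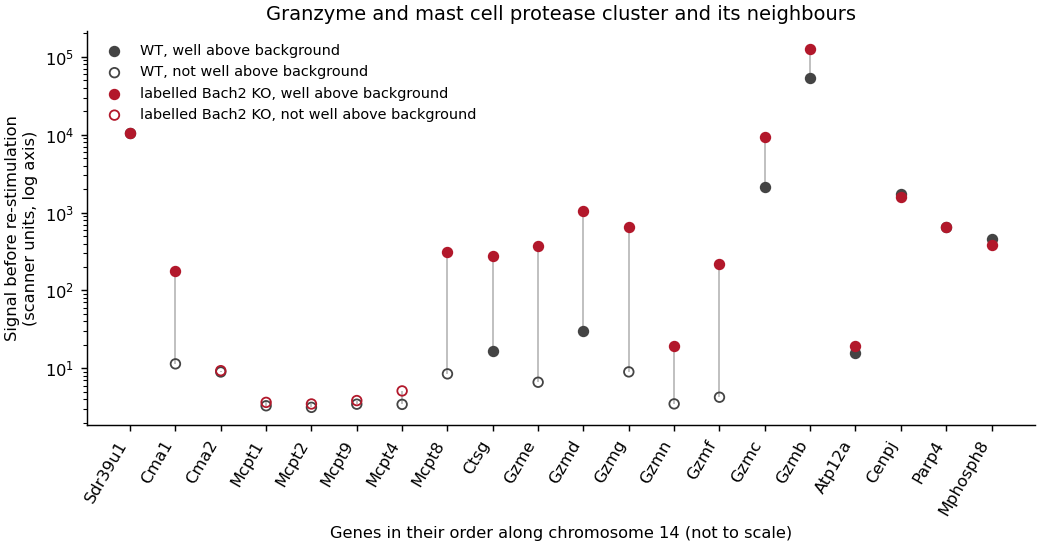
Signal before re-stimulation (y axis, scanner units, log scale) of 20 genes in their order along chromosome 14 (x axis, not to scale), with WT in grey and KO in red and open circles for values not well above background. From Mcpt8 to Gzmb the red points lie above the grey ones, Mcpt1 to Mcpt4 are open on both arrays, and the points of each flanking gene lie close together.

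Several genes better known from plasma cells were higher on the KO array. Of 12 plasma cell genes used, 5 were at least 2-fold higher and 0 lower, with a median of 0.63. Mzb1, an endoplasmic reticulum chaperone for immunoglobulin, had signals of 24.5 and 615, 25.3-fold higher. Jchain, which joins immunoglobulin M and A subunits, had signals of 39.2 and 970, 24.8-fold higher. Ell2, an elongation factor of secretory cells, was 4.17-fold higher and Derl3, of the protein disposal pathway, 3.5-fold. Prdm1, the repressor Blimp-1 that effector T cells and plasma cells share, had signals of 197 and 487, 2.48-fold higher. Xbp1 (2031 and 2180) and Sdc1, the surface marker CD138 (31.8 and 26), differed by less than 2-fold. Of the B cell markers, Cd79a, Ms4a1, Pax5 and Cd22 were well above background on neither array, and Cd79b had signals of 525 and 539. Blnk, an adaptor of the B cell receptor, was the B cell gene that differed, with signals of 17.5 and 222, 12.8-fold higher. After re-stimulation 6 of the 12 plasma cell genes were at least 2-fold higher, with a median of 1.10.

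Interferon-stimulated genes had as high a share of higher members as the Th2 list, 66.7% in each. Of 24 used, 16 were at least 2-fold higher on the KO array, 0 were lower, 22 lay above 0, and the median log2 difference was 1.67. Rsad2 (viperin), an antiviral enzyme, had signals of 41.2 and 628, 15.3-fold higher, although its lowest probe gave a difference of 1.52. Ifit1, a sensor of viral RNA caps, had signals of 48.2 and 459, 9.56-fold higher. Isg15, a ubiquitin-like modifier, had signals of 1421 and 9259, 6.55-fold higher. The 5 oligoadenylate synthetase genes of the list were all higher but differed in size: Oasl2 was 7.81-fold, Oasl1 6.79-fold, Oas2 4.84-fold, Oas1a 3.53-fold and Oas3 2.04-fold higher. Irf7, a factor that amplifies the interferon response, had signals of 542 and 1840, 3.41-fold higher. Stat2 (1618 and 2804) and Irf9 (1193 and 2067) were each 1.74-fold higher, under the 2-fold rule. A run of guanylate-binding protein genes on chromosome 5, Gbp8, Gbp9, Gbp4 and Gbp6, was also higher, by 2.16, 2.71, 2.78 and 4.94-fold. The receptor chains of type I interferon did not share this: Ifnar1 differed by -0.05 and Ifnar2 by -0.47.

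This set differed before re-stimulation far more than after it. After re-stimulation the median of the same 24 genes was 0.12, and 4 of them were at least 2-fold higher. Ifit1 then had signals of 583 and 629, Oasl2 of 4122 and 4318, and Gbp2 of 28025 and 16753. Each of these signals was above that of the same array label before re-stimulation, and none of the 3 was then 2-fold higher on the KO array. The contrast between the times was not tested.

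**Figure D3:**
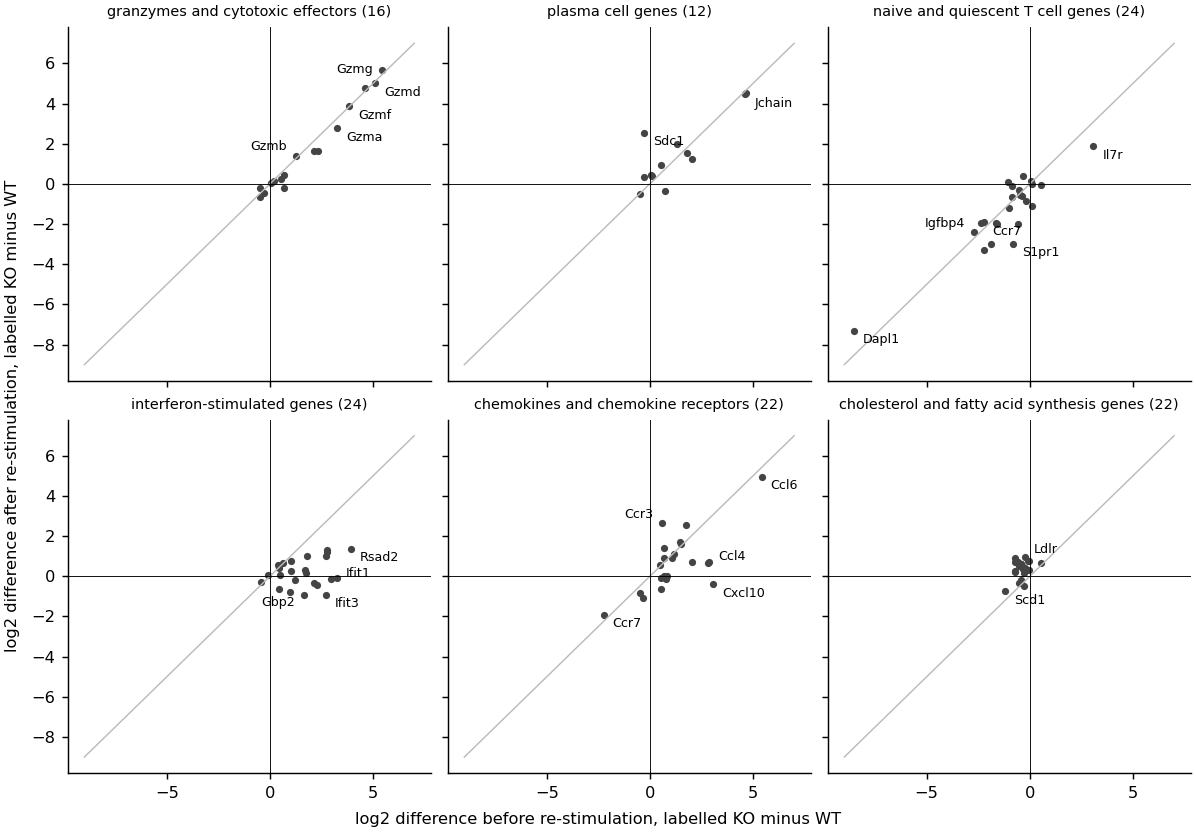
log2 difference, KO minus WT, before re-stimulation (x axis) and after it (y axis) for the members used at both times in 6 gene lists, 1 point per gene and the number in brackets, with the line of equal differences in grey. Most cytotoxic, plasma cell and naive genes lie near the line, most interferon-stimulated genes and Ccl3, Ccl4 and Cxcl10 lie below it, and most cholesterol genes lie above it.

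Among the partners and relatives of Bach2, 5 of 19 AP-1, Batf, Maf, CNC and Irf4 genes used were at least 2-fold higher and 0 lower, with a median of 0.49. Batf3 had signals of 608 and 2067, 3.42-fold higher, and Batf of 6933 and 9715, 1.41-fold. Irf4, which binds with Batf, had signals of 250 and 414. Atf3, a stress-induced member, was 4.87-fold higher (97.5 and 473), and Fosl2 2.11-fold. Batf2 and Fosl1 were well above background on the KO array only, at 52.6 and 32.1. The general subunits hardly differed: Jund had signals of 71946 and 78956, Jun of 230 and 223 and Fos of 53.4 and 56.4. The median of this list after re-stimulation was -0.08, with Batf at 1.26 and Batf3 at 1.75.

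Other lineage factors differed one by one. Id2, an inhibitor of E proteins that marks effector cells, had signals of 5047 and 16787, 3.34-fold higher. Zeb2, a factor of terminal effector cells, was 41.3 on the KO array and not well above background on the WT array. Ahr, the aryl hydrocarbon receptor of the Th17 list, had signals of 27.2 and 102. In the other direction Tox, of exhausted and developing T cells, had signals of 119 and 29.8, 3.98-fold lower. Of 13 Th1 genes used, 5 were higher and 1 lower. Hlx (at least 6.3-fold), Il12rb1 (4.2-fold, 4666 and 19501) and Eomes (3.06-fold) were among the higher, while Tbx21, the master factor T-bet, had signals of 2049 and 1796, and the kinase Txk was 2.56-fold lower. Foxp3, the factor of regulatory T cells, had a WT signal of 50.8 and was not well above background on the KO array, at least 3.01-fold lower. Among the 6 Th17 genes used, Ahr was the 1 past 2-fold, and Il17a was well above background on neither array.

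**Figure D4:**
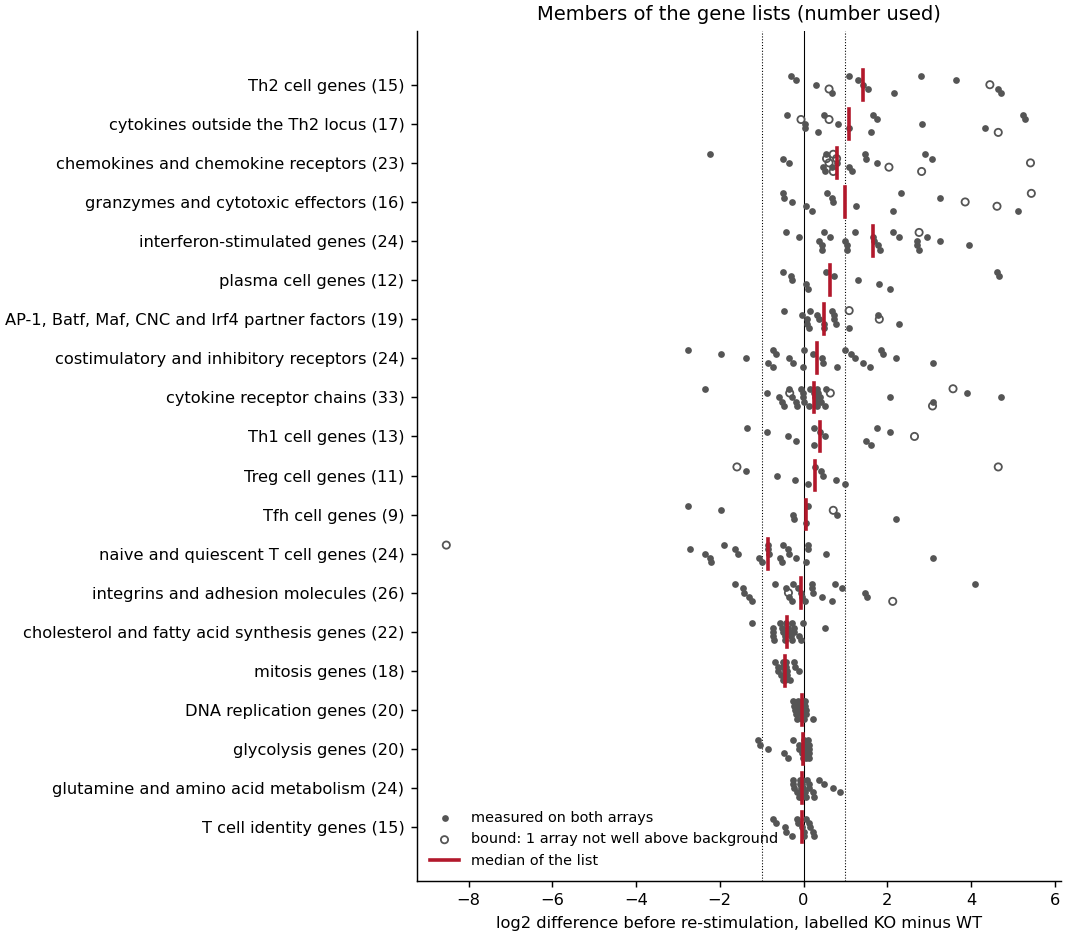
log2 difference before re-stimulation, KO minus WT (x axis), of every member used in 20 gene lists (y axis, number used in brackets). Filled points were measured on both arrays, open points are bounds, red bars are medians and dotted lines mark 2-fold; Th2, cytokine and interferon-stimulated lists lie to the right, naive genes to the left, and DNA replication and T cell identity genes near 0.

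Genes of naive and quiescent T cells were the main group that was lower. Of 24 used, 9 were at least 2-fold lower and 1 higher, the median was -0.84, and 5 lay above 0. Dapl1 had a WT signal of 6231 and was not well above background on the KO array, at least 369-fold lower, the largest fall of any gene used, and after re-stimulation its WT signal of 2445 again met no signal above background. The homing receptor Ccr7, described with the chemokines, was 4.72-fold lower. Tcf7, which encodes TCF-1, had signals of 1560 and 523, 2.97-fold lower (its other probe gave a difference of -1.56), and its relative Lef1 had 5713 and 2864, 1.99-fold lower. Igfbp4 was 6.52-fold lower (2213 and 338), Il6ra 5.11-fold, Nsg2 4.64-fold and Klf3, a quiescence factor, 3.7-fold. The list was not uniform. Klf2, a factor that sustains S1pr1, had signals of 36756 and 39587 by its brighter probe and a difference of -1.16 by the other. Foxo1 (6739 and 5289) and Satb1 (7255 and 10506) were under 2-fold. Il7r, the IL-7 receptor chain of naive and memory cells, went the other way, with signals of 494 and 4165, 8.46-fold higher. After re-stimulation 12 of the 24 were at least 2-fold lower (3.85% of all genes used were) and 1 was higher, with a median of -0.98.

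Beyond this list the largest falls were of genes with no shared role. Morc1, a silencer of transposons in germ cells, had signals of 1349 and 24.8, 54.1-fold lower. Gldc, of the glycine cleavage system (613), the homeobox gene Pitx1 (444) and Stxbp6, which binds SNARE proteins (387), stood well above background in WT cells alone and were at least 34.2, 26.3 and 22.9-fold lower. Parm1 (845 and 51) and the axonemal dynein gene Dnah7a (610 and 45.6) were 16.5 and 13.3-fold lower. Nrn1, an anchored neuronal growth protein, had signals of 4262 and 585, 7.25-fold lower. Hba-a1, an α-globin gene, had signals of 8684 and 1505, 5.74-fold lower. For Acsl6 and Kcnq1ot1 the probes disagreed, with differences from -3.19 to -0.15 and from -2.47 to 0.04.

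Surface receptors moved in both directions. Of 24 costimulatory and inhibitory receptors used, 8 were at least 2-fold higher and 3 lower. Icos, the costimulator of helper cells, had signals of 6925 and 31998, 4.64-fold higher. The inhibitory receptors Havcr2 (TIM-3, 152 and 1290) and Lag3 (85.6 and 255) were 8.55 and 3-fold higher, and the ligands Pdcd1lg2 and Cd274 3.74 and 2.7-fold. The other Havcr2 probe gave a smaller difference, 1.13 on the log2 scale. In contrast Btla, an inhibitory receptor of resting lymphocytes, was 6.77-fold lower (588 and 86.5), Cd200 3.89-fold and Ctla4 2.6-fold, the latter from signals of 115 and 44.1. Pdcd1 (427 and 747) was under 2-fold. Of 33 cytokine receptor chains used, 6 were higher and 1 lower, and the high-affinity and shared chains of the IL-2 receptor, Il2ra (1446 and 1748), Il2rb (47577 and 46949) and Il2rg (5717 and 6282), differed by 0.28 or less. Il1r2, a decoy receptor of IL-1, had signals of 22.9 and 341, 14.9-fold higher. Csf2rb, the chain shared by the IL-3, IL-5 and GM-CSF receptors, and its near-identical relative Csf2rb2 were at least 11.9 and 8.46-fold higher. The other Csf2rb probe, however, gave 0.06.

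Of 25 genes of the TNF superfamily used, 6 (24%) were higher and 1 (4%) lower, against 5.26% and 2.82% of all genes used. Tnfsf13b, the B cell survival factor BAFF, was at least 7.19-fold higher (108 on the KO array), and Tnfrsf8 (CD30) had signals of 21.7 and 87.2. Tnfsf4, the ligand of OX40, was 2.53-fold lower. Of 26 integrin and adhesion genes, 4 were higher and 5 lower. Itgae (CD103), which binds E-cadherin of epithelium, had signals of 26.7 and 455, 17.1-fold higher, and Itgax (CD11c) was 65.7 on the KO array. Itga6 (1097 and 402) and Itga4 (220 and 93.5) were 2.71 and 2.34-fold lower. Klrg1, a receptor of terminally differentiated effector cells, was the 1 of 10 killer cell lectin-like receptor genes used that differed, with signals of 17 and 198, 11.7-fold higher. In the S100, galectin and annexin list 4 of 25 were higher and 0 lower, among them Anxa1 (3.61-fold, 891 and 3200) and Anxa3 (at least 4.15-fold). Of 9 serpins used, 2 were higher and 2 lower. Among gene pairs and runs of close relatives, Ctla2a and Ctla2b, inhibitors of cathepsin-like proteases, were 4.17 and 4.23-fold higher (14117 and 58572 for Ctla2a). The stefin genes Csta1, Cstdc4, Csta2 and Cstdc5, neighbours on chromosome 16, were between 2.94 and 12.6-fold higher, the lowest of them as a bound. Cross-hybridisation between these near-identical copies was not tested. In all, 18 runs of at least 3 neighbouring genes used were higher and 2 lower, with genes not used passed over. The 18 include the Y-linked genes and both parts of the granzyme cluster. Higher genes were also more numerous (638 against 342), and the number of runs was not tested against that.

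Metabolic and cell cycle genes differed little before re-stimulation. None of 24 glutamine and amino acid genes and none of 20 DNA replication genes was past 2-fold, with medians of -0.02 and -0.03 (Mcm6, a subunit of the replicative helicase, had signals of 61104 and 61490). Of 20 glycolysis genes, Aldoc (9899 and 4675) and Pdk1 (2179 and 1063) were lower by 2.11 and 2.04-fold, and the median was 0.00. The other Pdk1 probe gave a difference of -0.80. All 18 mitosis genes lay below 0, between -0.11 and -0.69, with a median of -0.44, although none reached 2-fold. Top2a, which untangles chromosomes, had signals of 5596 and 3444 and Mki67 of 41570 and 31587. Of 22 cholesterol and fatty acid synthesis genes 1 lay above 0, the median was -0.39, and the desaturase gene Scd1 was 2.33-fold lower (1812 and 773). After re-stimulation the cholesterol median was 0.46 and the mitosis median -0.77. Of 17 cyclin and arrest genes, the CDK inhibitor Cdkn2b had signals of 433 and 1346, 3.12-fold higher, Gadd45b was 2.52-fold higher, and 0 were lower. The inflammatory caspases Casp1 (2.45-fold) and Casp4 (2.14-fold) were higher and Bmf, a death inducer, 2.16-fold lower among 18 BCL2 family and death genes used. By its other probe Bmf differed by -0.45. In the list of heme genes Hmox1, the heme oxygenase that Bach factors are known to repress, had signals of 338 and 793, 2.35-fold higher, and the median was -0.02.

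Some markers of cells other than T cells were also higher on the KO array. Of 15 mast cell and basophil markers listed, 8 were used and 5 were at least 2-fold higher. Summed signals were 251 (4 members well above background) and 1654 (8 members). Members so on the KO array only could not come out lower, so the count is not a test. Tpsab1 and Kit had no named probe. Cpa3 (339), Mcpt8 and Fcer1a (74.4), the α chain of the IgE receptor, were well above background on the KO array only, while Ms4a2, its β chain, Mcpt1, Mcpt4, Tpsb2 and Slc18a2 were so on neither. Of 13 myeloid markers, 8 were used and 6 were higher, with summed signals of 1234 and 4023 (7 members on each array). Mpo had signals of 32.3 and 158 and Tyrobp of 208 and 785, whereas Lyz2, Itgam, Elane and Csf3r were well above background on neither array. Of 7 NK cell markers, 5 were used and 3 higher (Gzma, Eomes and Cd244a), and Ncr1 was well above background on neither array. The lowest of the Cd244a probes gave a difference of 0.70. Summed signals of the NK list were 4349 and 34132, of which Gzma alone, a granzyme counted above, gave 3301 and 31477. Each summed signal in this paragraph covers only the members well above background on that array. Of 6 eosinophil markers Prg2 (53.3) and Ccr3 (23) were well above background on the KO array only. Ccr3, also in the Th2 list, was near the floor and differed by at least 0.61. Epx, Siglecf and Ear1 were well above background on neither array, and Ear2 had no named probe. Of the NK list, Gzma is also in the granzyme list and Eomes in the Th1 list. In RNA of a whole culture more cells of a type and more RNA per cell cannot be told apart, and the part of other cells in the differences above was not tested.

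Since Bach2 binds AP-1 motifs, the promoters of the differing genes were searched for TGACTCA, which reads TGAGTCA on the other strand, in RefSeq windows of 300 bases (250 before and 50 after each start site, GRCm38.p6). The motif stood in 1709 of 32851 windows (5.2%) of all genes, used or not, and in 460 of 12422 windows of the genes used (3.7%). It stood in 60 of 638 windows of genes at least 2-fold higher (9.4%) and in 10 of 361 windows of genes at least 2-fold lower (2.77%). Counted by gene, the shares were 55 of 485 (11.3%), 9 of 271 (3.32%) and 437 of 9774 (4.47%) for all genes used. Over all genes with a window, used or not, the share was 1607 of 27025 (5.95%). Windows of the higher genes held less G and C, with a median GC content of 54.7% against 60.3%. Among windows below that median, 12.2% of those of higher genes and 4.96% of all used held the motif, and at or above it 4.11% and 2.46%. For the lower genes the share was 5.05% below the median (10 of 198 windows) and 0 of 163 windows at or above it. With normexp the share of lower genes was 4.48%. The split by GC content was chosen after the first shares were seen. The shares were not matched for brightness, on which the share of genes past 2-fold depended. A motif in a window is a match of letters, and binding there was not examined.

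**Figure D5:**
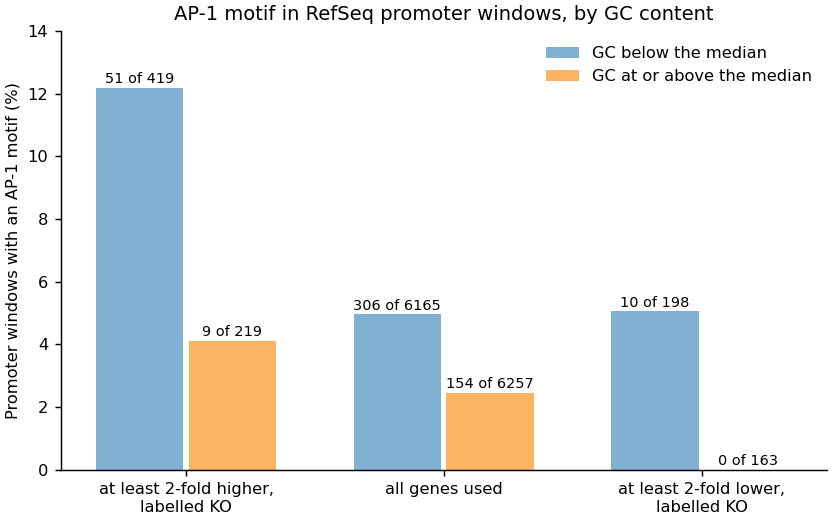
Share of RefSeq promoter windows that hold TGACTCA on either strand (y axis, %) for genes at least 2-fold higher on the KO array, all genes used and genes at least 2-fold lower (x axis), split at the median GC content of 60.3% and with counts above the bars. In both GC classes the share is highest for the higher genes, 12.2% and 4.11%.

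The 50 bases around the motif, in capitals, are shown as examples for 4 higher genes and 1 lower gene, chosen after their values were seen. Rsad2, Cxcl10 and Gzmb belong to lists above and Mt2 to none. No motif share was computed for any single list. Mt2, a metallothionein that binds zinc and buffers oxidants, had signals of 305 and 3076, 10.1-fold higher, and its neighbour Mt1 was 10.2-fold higher. Prnp, the prion protein gene, had signals of 4153 and 1750, 2.36-fold lower. The sequences are RefSeq promoter windows of GRCm38.p6, 5′ to 3′ along the gene's strand, and lie upstream of the start site.
Rsad2 promoter, chr12:26456512-26456561, minus strand: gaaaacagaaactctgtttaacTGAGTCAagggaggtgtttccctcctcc
Cxcl10 promoter, chr5:92348936-92348985, minus strand: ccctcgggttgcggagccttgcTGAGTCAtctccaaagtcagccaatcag
Gzmb promoter, chr14:56262365-56262414, minus strand: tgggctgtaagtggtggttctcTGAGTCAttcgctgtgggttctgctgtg
Mt2 promoter, chr8:94172517-94172566, plus strand: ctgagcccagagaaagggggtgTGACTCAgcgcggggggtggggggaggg
Prnp promoter, chr2:131909804-131909853, plus strand: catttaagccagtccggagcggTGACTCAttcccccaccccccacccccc

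The differences before re-stimulation recurred in part on the separate pair of arrays after it. Of the 638 higher genes, 538 could be used after re-stimulation. Of these, 460 lay above 0, 271 (50.4%) were again at least 2-fold higher and 4 were at least 2-fold lower. Of the 342 lower genes, 245 could be used, 211 lay below 0, 120 (49%) were again at least 2-fold lower and 4 at least 2-fold higher. Over all genes used after re-stimulation 5.17% were higher and 3.85% lower. The median difference of the genes higher before was 1.53 before and 1.01 after, and that of the lower genes -1.44 and -0.93. The 2 pairs share no array, but the cells of the same label may come from the same culture, which the labels do not say.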

How the data were processed

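Total RNA was labelled with Cy3 and read on Agilent whole mouse genome arrays in 1 colour, 4 arrays for 4 conditions, which lay on 1 slide read in 1 scan. For each spot the authors deposited the intensity that Feature Extraction 10.7.3.1 gave after background subtraction, beside flags for spots above background or uneven. Their deposited log2 table, 1 value a probe, equals log2 intensity less that array's 75th percentile to 0.01 or better in 41001 or more of its 41173 probes. Flagged spots (107 to 120 per array) were left out, log2 intensities averaged over the spots of a probe, and each array set to 0 at its 75th percentile. Of 41174 probes, 27479 (66.7%) were matched by accession to RefSeq genes of GRCm38.p6. The array header names another build, so no position was taken from it. The 6641 genes with several probes were read from the brightest. The share of probes well above background was 53.6% to 54%. Precision is limited by having 4 arrays. Of 5350 used probes without a RefSeq name 5.72% were higher and 3.51% lower, and they enter no count of genes.

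No test was made, since each group holds 1 array. Gene lists were described by counts and medians. The genes named were Bach2, the Th2 cytokines, Batf, Batf3, Irf4, Gata3 and Stat6, the 20 largest differences each way, up to 4 members of each of 37 lists and defining markers. Further members and genes were named after their values were seen. A few genes of the lists are counted but not reported by name here. Members and lists were chosen with earlier results of these data known. The steps were checked on simulated arrays, with changes well past 2-fold in genes well above background on both arrays. Noise was the same at every brightness and bounds were not covered, so the check concerns the code and not the certainty of dim genes. Alternatives were scaling to the median, quantile normalization, normexp with an offset of 50 (limma 3.58.1 in R 4.3.3) and quantile normalization, the authors' log2 table, averaging the probes of each gene, stricter and no filters on dim probes, flagged spots kept and a 3-fold rule. Python 3.11.15, numpy 2.4.6 and pandas 2.3.3 were used.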

Additional observations from a re-analysis of the deposited data

Results flagged for a closer look

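For the 7 genes given here the difference between the labels was at least 2-fold before re-stimulation and at least 2-fold the other way after it, with 1 array on each side, and the contrast between the times was not tested. Cd160, an inhibitory receptor of the BTLA ligand HVEM, had a log2 difference of 1.14 before (signals of 40.7 and 89.4) and -1.95 after it (4212 and 1228). Pcp4 went from 1.71 to -2.34, Serpina6 from 1.08 to -1.76 and Npy from 1.14 to -1.20. Wnt9b went from -1.59 to 1.49, Olfr677 from -1.24 to 1.73, and C3, the complement component, from -1.41 to 1.21. With normexp the difference before re-stimulation was past 2-fold for C3 alone (-1.06), and for the other 6 genes it was of the same sign and under 2-fold.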

How the results depend on the processing

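Scaling to the array median, the authors' log2 table and keeping flagged spots changed none of the counts by over 1.5 times and no list median by more than the spread between probes. With quantile normalization the medians were 0.18 for killer cell lectin-like receptors, 0.93 for cytokines, 0.67 for chemokines, 2.37 for mast cell and basophil, 1.06 for eosinophil and 3.37 for sex-linked genes. With normexp and quantile normalization 266 genes were higher and 108 lower, and 145 and 57 were so at both times. The medians were then 1.25 for Th2, -0.01 for Th17, -0.66 for naive, 0.06 for killer cell lectin-like receptor, 0.69 for cytokine, 0.53 for chemokine, 0.13 for cytokine receptor, 0.54 for plasma cell, 1.38 for interferon-stimulated, 0.12 for B cell, 0.96 for myeloid, 1.39 for NK cell, 1.23 for mast cell and basophil, 0.36 for eosinophil and 1.64 for sex-linked genes. Averaging the probes of each gene gave 0.11 for Treg, 1.62 for myeloid and 1.21 for NK cell genes.

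With only genes measured on both arrays, 425 genes were higher and 221 lower, since genes given as bounds drop out. The medians were 0.05 for Th17, -0.09 for Tfh, 0.69 for cytotoxic, 0.50 for killer cell lectin-like receptor, 1.34 for cytokine, 1.77 for myeloid and 1.81 for mast cell and basophil genes, and -1.04 for the sex-linked list, of which Xist alone was left. With neither filter nor floor 1212 were higher and 686 lower, and 461 and 213 were so at both times. The medians were 0.14 for Th17, 1.26 for cytotoxic, 0.52 for cytokine, 0.22 for costimulatory and inhibitory receptor, 0.54 for plasma cell, 0.15 for heme, 0.88 for myeloid, 0.86 for mast cell and basophil, 1.05 for eosinophil and 3.45 for sex-linked genes. At 3-fold 301 were higher and 127 lower. The cause of the other shifts was not tested. The median of all genes lay between -0.06 and 0.10 under these settings, the motif share of higher genes between 8.17% and 10.9%, and that of lower genes between 2.43% and 4.48%. Of 904 values of the named genes past 2-fold, 0 changed sign and 29 were under 2-fold. These genes were mostly chosen by the size of their difference in these data, so they do not stand for all genes past 2-fold. Over all of those, normexp kept 266 of 638 higher and 105 of 342 lower genes past 2-fold, and 0 changed sign. No paired analysis was possible because each group holds 1 array, and for the same reason no array could be left out. Dim genes carry the least certain differences.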
